A study of Mus musculus with 2 samples.

Results

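The genes of the cytosolic ribosome were examined in RNA sequencing data of cultured dentate gyrus (DG) astrocytes from WT mice and from β-arr1 KO mice. Members were chosen by symbol, as Rpl or Rps followed by a digit, Rplp0 to Rplp2, or Rpsa, without the S6 kinases and without symbols marked as pseudogenes. In all, 83 of the 16302 gene symbols in the joined tables matched. The data comprised 1 library for each genotype, both labelled C57BL/6, with no treatment other than culture. The KO animals lacked β-arrestin1, a scaffold of receptor signaling, in every cell and not in astrocytes alone. Cells dissociated from the adult DG were grown for several days in medium with serum and then shaken to detach other cells, and a figure legend of the study speaks of several mice in each group without saying whether their cells were pooled in a library. Age and sex of the animals behind these libraries are not given in the sources used here. No replicate was available, so no difference could be set against the spread between animals or cultures, and no test of genotype was made.

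A ribosome consists of a large 60S subunit, which joins amino acids, and a small 40S subunit, which reads the mRNA. Each subunit carries 1 copy of most of its proteins, so that cells need these proteins in equal numbers. Most of these mRNAs start with a cytosine and a run of pyrimidines, the 5′ terminal oligopyrimidine (TOP) tract, through which mTOR and Larp1 control their translation. The genes are also known for many processed pseudogenes, which are intronless copies of the mRNA inserted elsewhere in the genome.

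The bases around the annotated start of transcription are shown for 8 members with a pyrimidine run across the start and for 4 members without it, since the run is the feature these mRNAs are known to share. The sequences are those of RefSeq on GRCm38.p6, with 15 bases before and 15 bases from the start on, and capitals mark the unbroken run of C or T that includes the first transcribed base. The runs of Rpl34 and Rpl27a have 20 bases each and reach past the edge of the window shown.
Rpl28: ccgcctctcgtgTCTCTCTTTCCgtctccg
Rpl34: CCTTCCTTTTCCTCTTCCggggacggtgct
Rpl27a: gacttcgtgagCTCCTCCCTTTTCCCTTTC
Rpl15: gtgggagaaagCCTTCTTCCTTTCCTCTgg
Rpl35: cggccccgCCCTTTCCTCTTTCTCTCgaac
Rpl7a: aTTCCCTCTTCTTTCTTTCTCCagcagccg
Rps10: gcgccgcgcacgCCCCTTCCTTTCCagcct
Rps6: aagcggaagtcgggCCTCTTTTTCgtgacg
Rps25: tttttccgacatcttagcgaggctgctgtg
Rpl41: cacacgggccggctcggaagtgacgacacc
Rps3: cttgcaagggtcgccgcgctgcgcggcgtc
Rpl12: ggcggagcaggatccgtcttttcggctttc
The windows lie at chr7:4792950-4792979 on the plus strand for Rpl28, chr3:130730323-130730352 on the minus strand for Rpl34, and chr7:109519180-109519209 on the plus strand for Rpl27a. Those of Rpl15 and Rpl35 lie at chr14:18270972-18271001 and chr2:39005117-39005146, both on the minus strand, and that of Rpl7a at chr2:26910792-26910821 on the plus strand. Those of Rps10 and Rps6 lie at chr17:27635230-27635259 and chr4:86857353-86857382, both on the minus strand. Of the members without the run, Rps25 lies at chr9:44407699-44407728 on the plus strand, Rpl41 at chr10:128549154-128549183 and Rps3 at chr7:99483695-99483724 on the minus strand, and Rpl12 at chr2:32961697-32961726 on the plus strand.

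Of the 83 members, 62 matched an entry of the promoter table by gene number, with 73 starts among them. A C at the start followed by at least 4 bases that are each C or T was found in 13 of the 62 members (21.0%) and in 3.01% of the 27025 genes in the table. A run of at least 8 C or T across the start was found in 17 members (27.4%) and in 4.59% of all genes. Rpl34 has 2 starts in the table, and the run is at the one shown. The 7 letters CCGGAAG, the core that ETS family factors bind, stood on either strand between 250 bases before and 50 bases after the start in 25 members (40.3%) and in 9.93% of all genes. Their reverse complement begins with 5 pyrimidines, so a match on that strand can overlap a pyrimidine run. Entries were not available for 21 members, Rpl3, Rplp1 and Rpl30 among them. An annotated start can differ from the start used in these cells, and a window without the run shows only that these letters are not there.

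The tables hold FPKM values, that is fragment numbers scaled by transcript length and by the number of mapped fragments, so levels can be compared between genes per length. Depth was estimated from the steps of the lowest values at 9.38 M mapped fragments for the WT library and 9.52 M for the KO library. Arrb1, the deleted gene, was at 7.62 FPKM in WT against 2.72 FPKM in the KO library, for a ratio of 0.358 with a counting interval of 0.300 to 0.425. The astrocyte marker Gfap was at 189 and 192 FPKM, and all 10 astrocyte markers were listed in both libraries with sums of 396 and 420 FPKM and 4 above 3/2. Over all 12646 genes analysed, 9.56% had a ratio of β-arr1 KO vs. WT above 3/2 and 8.28% below 2/3, the limits used here. Markers of other cells were present as well. The 8 listed of 10 fibroblast and pericyte markers summed to 5526 FPKM in WT against 4479 FPKM in β-arr1 KO, with 4 of the 7 analysed below the limit of 2/3. The 10 microglia markers summed to 751 and 578 FPKM, with 1 below the limit, and the 10 oligodendrocyte lineage markers to 107 and 153 FPKM, with 4 of 8 above 3/2. The 6 listed ependymal markers summed to 20.7 and 34.0 FPKM, with all 3 analysed above 3/2, the 9 listed neuronal markers to 83.0 and 106 FPKM, with 1 of 3 analysed above 3/2, and the 10 endothelial markers to 95.6 and 95.2 FPKM, with 2 of 9 above and 1 below. Mog, Dcx, Tmem212 and Ak7 had no row in WT, Lum had none in β-arr1 KO, and Map2, Pdgfrb, Kcnj8, Dnah5 and Pifo were in neither table. The part of these markers in the values of the ribosomal protein genes was not tested. In bulk RNA, fewer cells of a type and less RNA per cell cannot be told apart.

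A gene was counted as past the limits when the β-arr1 KO vs. WT ratio exceeded 3/2 or fell short of 2/3. The analysis kept each gene that reached 1 FPKM in one or both libraries. Of the 83 members, 82 were analysed, and Rpl39l, a paralog known mainly from testis, stayed under this minimum with 0.827 FPKM in WT against 0.479 FPKM in β-arr1 KO. Of the 82, 80 were listed in both tables.

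Most ribosomal protein genes lay between the limits, as did most of all genes analysed. Members past the limits ranged from just outside them to far apart. The median log2 ratio of the 80 members in both tables was 0.02, beside 0.02 over all genes in both tables. Of these 80 members, 43 were higher and 37 lower in β-arr1 KO, and 39 had a ratio between 0.9 and 1.1. In all, 18 of the 82 members (22.0%) were past the limits, 11 above 3/2 and 7 below 2/3. Over all 12646 genes analysed, 17.8% were past the limits, 9.56% above and 8.28% below. Among the 6425 genes with a mean of at least 10 FPKM, 9.06% were past the limits, 4.82% above and 4.23% below. Among genes listed in both tables the share was 14.6%, and 16 of the 80 members in both tables were past the limits. The share of members past the limits was thus near that of all genes and above that of the well expressed genes. No test was made of this difference.

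**Figure D1:**
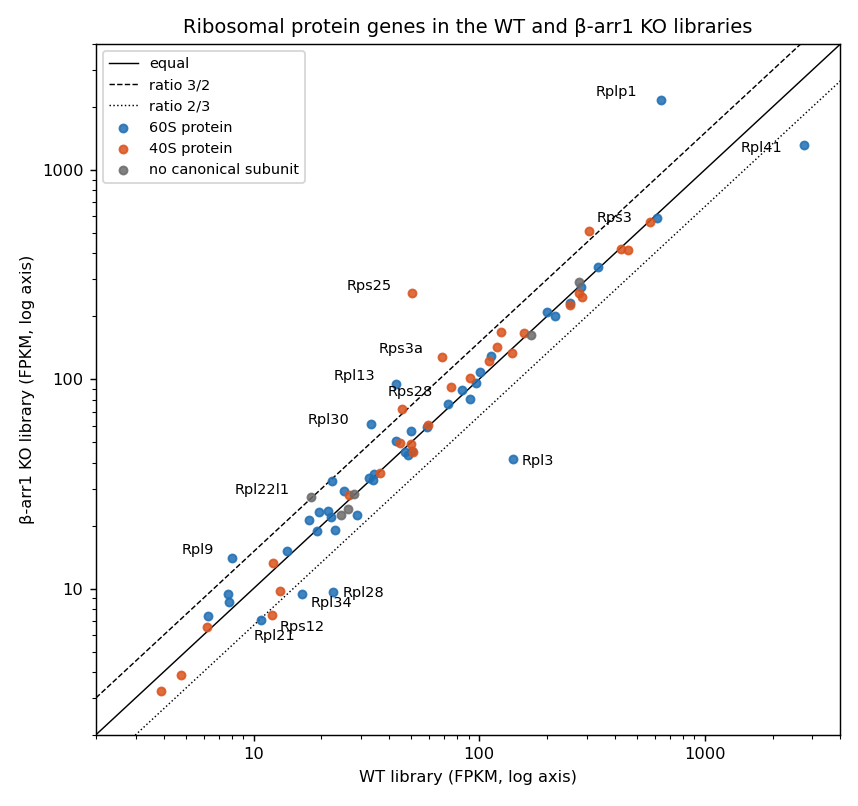
Level of 78 of the 80 ribosomal protein genes that were analysed and listed in both tables, with the WT library on the x axis and the β-arr1 KO library on the y axis, both in FPKM on log axes. Points stand for genes colored by subunit, lines mark equal levels and ratios of 3/2 and 2/3, and the 15 named genes lie outside the limits, with Rps25 and Rplp1 farthest above and Rpl3 farthest below.

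The levels were spread widely in both libraries. The median member was at 49.2 FPKM in WT against 52.5 FPKM in β-arr1 KO, while the median of all genes analysed was 10.2 FPKM in either library. Among the proteins of the ribosome itself, the highest listed gene was 705 times the lowest in WT and 665 times in β-arr1 KO. Their 90th percentile was 28.8 times the 10th in WT and 44.3 times in β-arr1 KO. For the genes of the mitochondrial ribosome, whose proteins are also needed in equal numbers, this span was 7.86 and 7.12. The order of the members was similar in both libraries, with Spearman's rho of 0.960 and Pearson's r of 0.955 on log2 levels across the 80 genes, which share the libraries and are not replicates.

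Rpl41, which encodes the shortest protein of the ribosome, had the highest level in WT with 2746 FPKM and the next highest in β-arr1 KO with 1323 FPKM. Rplp1 took the opposite course, with 640 FPKM in WT against 2158 FPKM in β-arr1 KO, the highest of all members there. Rpl8, a 60S protein, was at 613 and 591 FPKM. The 40S gene Rps9 was at 574 and 561 FPKM. Rpl8 and Rps9 differed little between the libraries. The lowest members that were analysed were Rps27 with 3.89 and 3.24 FPKM, Rps29 with 4.79 and 3.87 FPKM, Rps15a with 6.23 and 6.54 FPKM, and Rpl36a with 6.30 and 7.42 FPKM. The values of Rps27 and Rps29 rested on an estimated 6 and 9 fragments in each library, and their ratios had counting intervals of 0.223 to 3.12 and 0.284 to 2.30. No difference could be detected for them at this depth.

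All members together summed to 11852 FPKM in WT, 3.17% of all FPKM, and 12737 FPKM in β-arr1 KO, 3.41%. The sum was 885 FPKM higher in β-arr1 KO. Rpl41 made up 23.2% of the members' sum in WT but 10.4% in β-arr1 KO, while Rplp1 made up 5.40% and 16.9%. With both left out of members and total, which was chosen after seeing the data, the members made up 2.28% in WT and 2.50% in β-arr1 KO.

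The 40S genes were examined first. Of the 31 analysed, 5 were above 3/2 and 1 was below 2/3, that is 19.4% past the limits, beside 17.8% of all genes and 9.06% of the well expressed genes. Their sum was 4539 FPKM in WT against 5321 FPKM in the KO library, for a ratio of 1.17, while their median log2 ratio was 0.02.

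Rps25, which some viral mRNAs need to start translation, was at 50.2 FPKM in WT against 257 FPKM in the KO library, for a ratio of 5.12 (interval 4.45 to 5.92). It moved from rank 39 among the members in WT to rank 14 in β-arr1 KO. A row for Ccdc84 (4.56 FPKM), whose bounds overlap those of Rps25, was listed in β-arr1 KO only.

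Rps3a was at 68.7 FPKM in WT against 128 FPKM in the KO library, for a ratio of 1.86 (interval 1.67 to 2.07). Rps3, which lines the entry of the mRNA channel, was at 307 FPKM and 513 FPKM, giving a ratio of 1.67 (interval 1.61 to 1.73). The WT row of Rps3 spanned 56764 bases (NCBIM37, chr7:106575456-106632219) and ran into Gdpd5 and Klhl35, whereas the KO row spanned the 5813 bases at chr7:106626407-106632219. These 2 values thus do not describe the same stretch. Rps28 was at 45.5 FPKM in WT against 72.1 FPKM in the KO library, for a ratio of 1.58 with an interval of 1.06 to 2.41 that reaches inside the limits. Its transcript of 271 bases had an estimated 35 fragments in WT and 90 in β-arr1 KO. The length allowance sets these numbers further apart than the FPKM values.

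Rps12 was the only 40S gene below 2/3, with 12.1 FPKM in WT against 7.49 FPKM in β-arr1 KO. The ratio, 0.621, had an interval of 0.363 to 1.05, which includes 1. Rps6, the substrate of the S6 kinases, was at 59.5 and 60.4 FPKM, giving a ratio of 1.02. Rps19, which is mutated in many patients with Diamond-Blackfan anemia, was at 126 and 168 FPKM, and its ratio of 1.34 (interval 1.25 to 1.44) stayed inside the limits while its interval left out 1. The bounds of the Rps19 rows differed, with a start at chr7:25669483 in WT and chr7:25669606 in β-arr1 KO. Rps27a, which is made as a fusion with ubiquitin, was at 26.6 and 28.1 FPKM.

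Of the 45 genes of the 60S subunit, 5 were above 3/2 and 6 were below 2/3, that is 24.4% past the limits, beside the same 17.8% and 9.06%. Their sum was 6769 FPKM in WT against 6859 FPKM in the KO library, for a ratio of 1.01, and their median log2 ratio was 0.05.

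Rplp0, Rplp1 and Rplp2 form the stalk that recruits the GTPases of translation, with Rplp0 as the base and the other two as acidic pairs. Rplp1 was at 640 FPKM in WT against 2158 FPKM in the KO library, for a ratio of 3.37 (interval 3.20 to 3.55). Rplp0 was at 283 FPKM and 275 FPKM, giving a ratio of 0.972 (interval 0.925 to 1.02), and Rplp2 at 21.5 FPKM and 23.5 FPKM, giving a ratio of 1.09 (interval 0.738 to 1.63). The intervals of Rplp0 and Rplp2 lay wholly below that of Rplp1. Rpl12, which sits at the base of the stalk, was at 15.7 FPKM in WT and had no row in β-arr1 KO.

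Rpl13 was at 43.0 FPKM in WT against 95.3 FPKM in the KO library, for a ratio of 2.22 (interval 1.90 to 2.59). Rpl30 was at 33.0 and 61.3 FPKM, giving a ratio of 1.86 whose interval of 1.49 to 2.33 reaches just inside the limit. Rpl9 was at 8.04 and 14.0 FPKM, giving a ratio of 1.74 (interval 1.18 to 2.60). Rpl18 was at 54.3 FPKM in β-arr1 KO and had no row in WT. No other row of the WT table lay at the place of Rpl18 (NCBIM37, chr7:52973441-52976205), and no other row of the KO table lay at that of Rpl12 (chr2:32817215-32819939).

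Rpl3, which lies close to the peptidyl transferase center, had the lowest ratio of all members. It was at 141 FPKM in WT against 41.5 FPKM in the KO library, for a ratio of 0.294 (interval 0.265 to 0.326), and moved from rank 20 to rank 49. Rpl28 was at 22.5 and 9.62 FPKM, giving a ratio of 0.427 (interval 0.288 to 0.624). The bounds of the Rpl28 rows differed, from chr7:4744271-4746149 in WT to chr7:4744567-4746434 in β-arr1 KO.

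Rpl41 had a ratio of 0.482, with the same bounds in both tables (chr10:127985166-127986224). It has no entry in the annotation used, so no interval was estimated for it. Rpl34 was at 16.4 FPKM in WT against 9.40 FPKM in the KO library, for a ratio of 0.573 (interval 0.348 to 0.929), and Rpl21 was at 10.7 and 7.09 FPKM, giving a ratio of 0.660 (interval 0.451 to 0.959). Both intervals leave out 1 and reach inside the limits. Rpl5 and Rpl11, which bind 5S rRNA and can hold Mdm2 away from p53, had ratios of 0.993 and 1.15.

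Counting error was small against the largest differences and large for the low members. An interval was available for 79 members, and 27 of these left out 1, of which 13 belonged to members inside the limits. Of the 15 members past the limits with an interval, 8 had an interval that lay wholly past the limit. Among these were Rps25, Rplp1, Rpl13, Rps3a, Rps3, Rpl3 and Rpl28. The rows of Rplp1, Rps3 and Rpl28 had different bounds in the libraries, which the intervals do not take into account. No share of all genes was available for the intervals. The intervals hold counting error alone and say nothing of the spread between cultures.

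**Figure D2:**
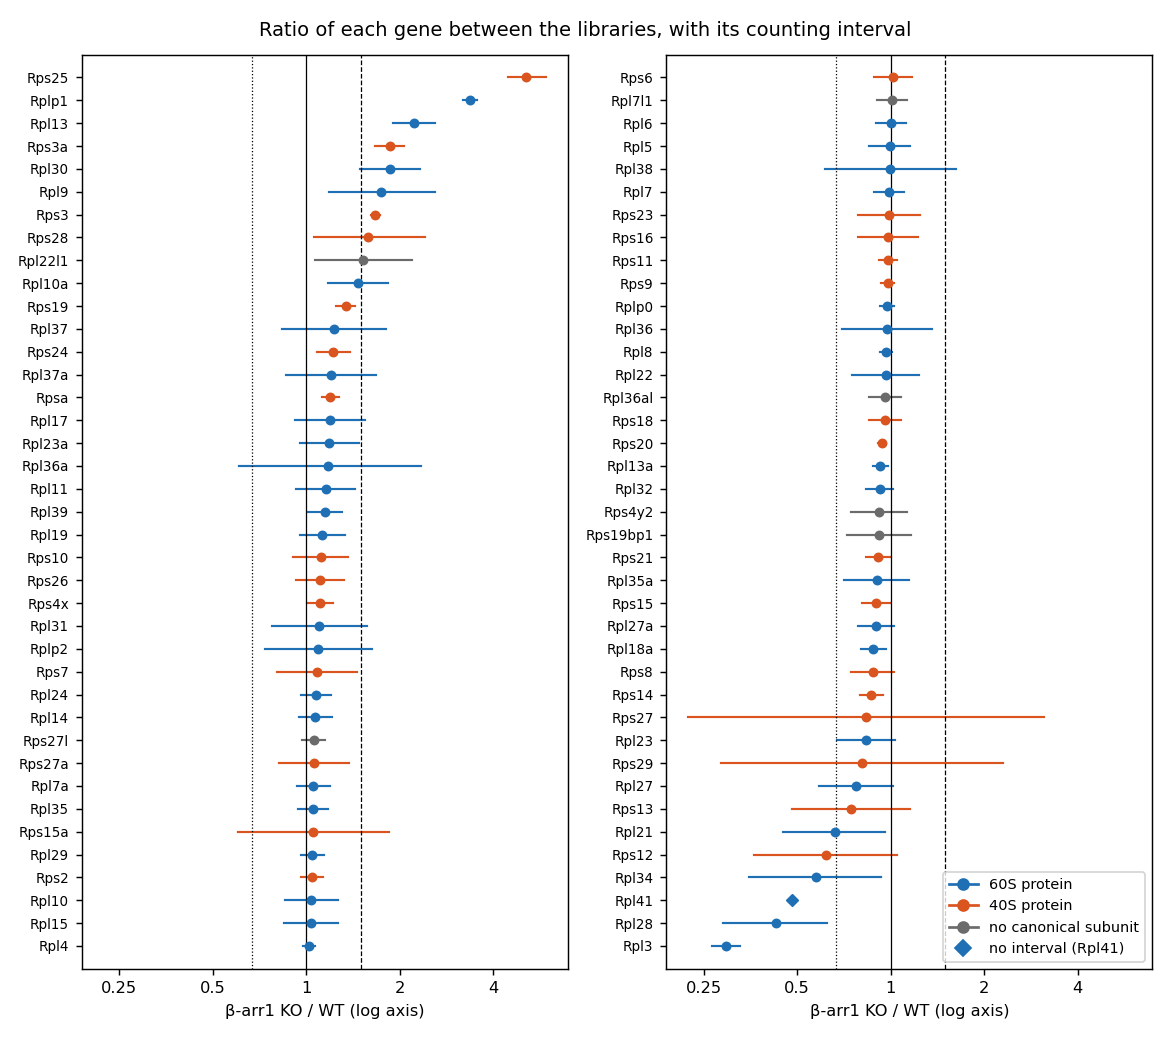
Ratio of β-arr1 KO vs. WT for 78 of the 80 members in both tables, in order, on a log axis, with 95% counting intervals as bars and lines at 2/3, 1 and 3/2. The upper 39 genes are at the left and the lower 39 at the right, and the 2 highest drawn, Rps25 and Rplp1, stand clear of the others.

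Paralogs of ribosomal proteins were compared with their parents. Rps27l, a target of p53 that is nearly identical to Rps27 in protein, was at 277 FPKM in WT against 293 FPKM in β-arr1 KO, which was 71.1 and 90.3 times the level of Rps27. Rpl36al was at 169 and 162 FPKM, 26.9 and 21.8 times Rpl36a. In both of these pairs the parent was among the lowest members and rested on few fragments. Rpl7l1, a nucleolar relative of Rpl7, was at 27.9 and 28.1 FPKM and thus at 0.287 and 0.293 of Rpl7.

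Rpl22l1 was the only paralog past the limits. It was at 17.9 FPKM in WT against 27.3 FPKM in the KO library, for a ratio of 1.52 (interval 1.07 to 2.20), while Rpl22, its parent and a known repressor of it, was at 46.8 and 45.1 FPKM. With both libraries set to one upper quartile, its ratio was 1.496 and inside the limit. Rpl39 was at 112 and 129 FPKM, far above Rpl39l. The row with the symbol Rps4y2, which RefSeq now lists as Rps4l and not as a gene of the Y chromosome, was at 26.3 and 24.1 FPKM, 0.239 and 0.198 of Rps4x. Rps19bp1 matched the symbol rule without being a ribosomal protein, since it encodes a binding partner of Rps19, and was at 24.5 and 22.4 FPKM.

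A few ribosomal proteins carry other symbols. Fau, which encodes Rps30 in fusion with a ubiquitin-like protein, was at 36.1 and 35.7 FPKM. Gnb2l1 (Rack1), the scaffold on the 40S head, was at 566 and 517 FPKM. The gene Rpl26 has no row under its own symbol. A row named Gm15772, described as a pseudogene of it, lay at chr11:68715068-68718036, where GENCODE places Rpl26, and was at 118 and 114 FPKM.

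Whether a gene has near-identical copies elsewhere was examined, because reads that fit several places can be counted at any of them or at none. For 81 analysed members the coding sequence was searched in NCBIM37 (mm9), the build of the tables, and matches of at least 98% identity over at least 80% of the coding bases in 1 unbroken piece were counted as copies. The 18 members without such a copy had a median of 265 FPKM in WT against 240 FPKM in β-arr1 KO. The 63 members with at least 1 copy had medians of 42.6 and 44.8 FPKM. The search used the longest annotated coding sequence, with 3153 bases for Rpl24, 1272 bases for Rpl13a and 639 bases for Rps19. Copies of a much shorter coding sequence can miss the 80%, so some members may lack a counted copy for this reason. Rps19 had no counted copy, although its pseudogene Rps19-ps3 had a row. Spearman's rho between the number of copies and the level across 79 members was -0.41 for WT levels and -0.42 for KO levels. With an identity of at least 95%, it was -0.27 and -0.28.

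Members past the limits mostly had copies, 16 of the 17 for which copies could be assessed. Of the 18 members without a copy, only Rps3 (5.56%) was past the limits, and its rows had different bounds. Of the 63 with copies, 16 (25.4%) were past the limits, 10 above and 6 below. Beside these, 9.06% of well expressed genes and 17.8% of all genes were past the limits. Rps25 had 2 copies, Rplp1 had 1, Rpl3 and Rpl13 had 3 each, and Rps3a had 5. Rpl21 had the most copies with 15, and Rpl7a with 11 copies had a ratio of 1.05. With copies of at least 95% identity, 1 of 9 members without a copy and 16 of 72 with copies were past the limits. No test was made of these differences, and the part of the copies in the ratios was not tested.

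**Figure D3:**
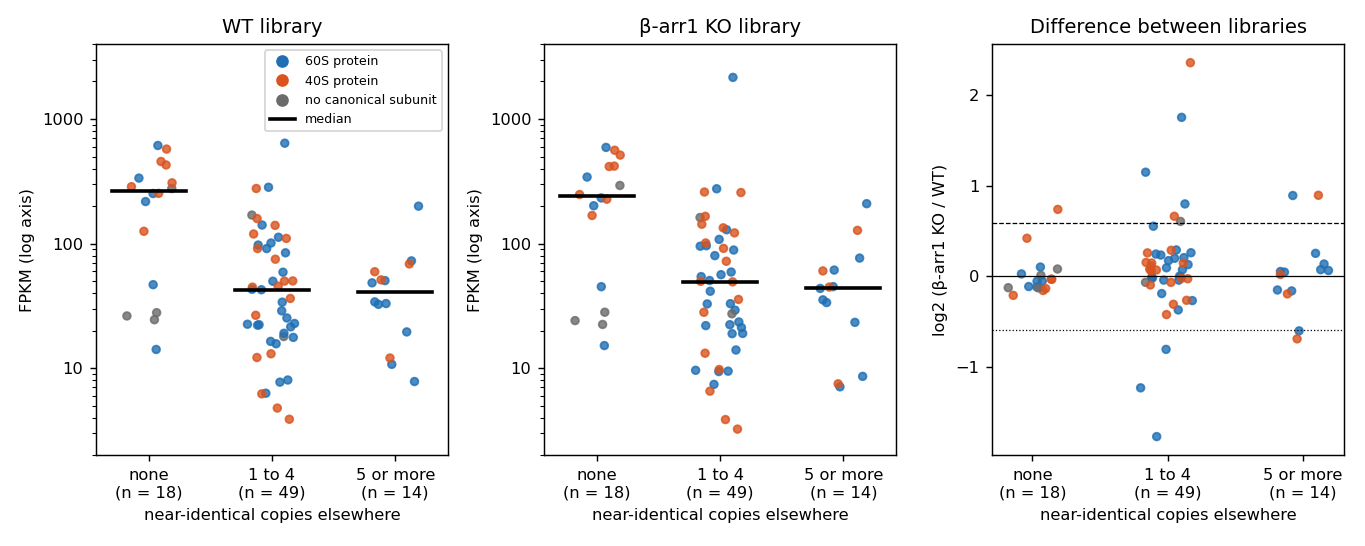
Level in the WT library, level in the β-arr1 KO library (FPKM, log axes) and log2 ratio between them, for members with no near-identical copy, 1 to 4 copies, or 5 or more copies elsewhere in the genome. Points stand for genes colored by subunit, of which 2 are not drawn, black bars are medians over all members of a class, and lines in the right panel mark 0 and the limits. Members without a counted copy had the highest median level and, apart from Rps3, stayed between the limits.

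Several pseudogenes have rows of their own, which the symbol rule left out. Rplp2-ps1 was at 363 FPKM in WT against 354 FPKM in β-arr1 KO, 16.9 and 15.1 times the level of Rplp2. Its row reached over Wdr89. Rpl31-ps12 was at 67.5 and 59.1 FPKM, 8.63 and 6.88 times Rpl31. Rps15a-ps4 was at 22.5 and 20.2 FPKM and Rps15a-ps6 at 31.2 and 25.7 FPKM, each at least 3 times the level of Rps15a. For the low members Rpl31 and Rps15a, the row of a pseudogene was thus listed far above the gene itself. The row of Rplp2-ps1 (chr12:76731581-76770524) is much wider than such a copy, so its level cannot be assigned to the copy alone.

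Gm15421, a pseudogene of Rpl22l1, was at 41.6 and 46.5 FPKM, and with it included the ratio of Rpl22l1 was 1.24, inside the limits. Rps19-ps3 was at 6.99 and 6.28 FPKM. Other copies counted above were not listed as pseudogene rows, so most of the members past the limits could not be summed with theirs.

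**Figure D4:**
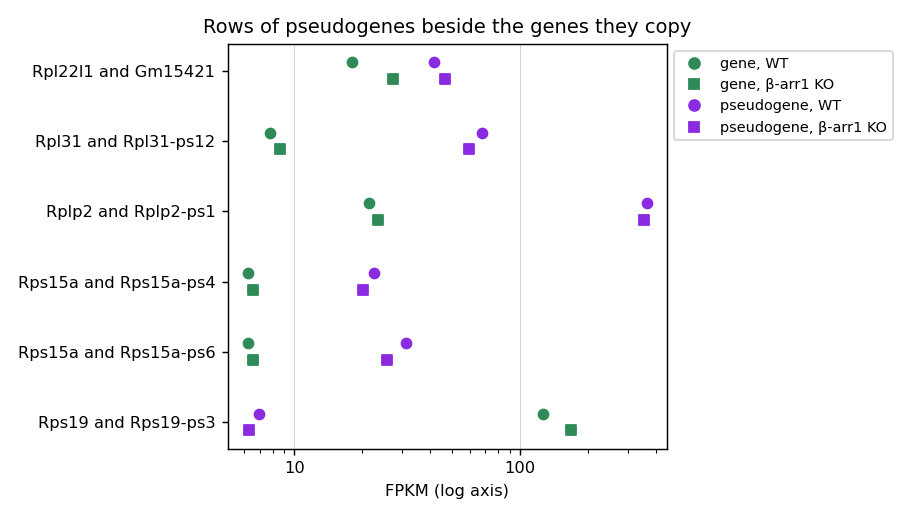
Levels in FPKM on a log axis of ribosomal protein genes (green) and of the rows of their pseudogenes (purple), with circles for WT and squares for β-arr1 KO. Rplp2, Rpl31, Rps15a and Rpl22l1 lie below the rows of their pseudogenes, and Rps19 lies above.

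The members were further divided by other features that the symbol did not use. A pyrimidine run at an annotated start was present in 18 analysed members by either definition above, of which 0 were above 3/2 and 2, Rpl28 and Rpl34, were below 2/3. Among the 43 matched members without it, 8 were above and 3 below. Over all genes, 9.56% were above and 8.28% below. The median log2 ratio was 0.01 with and 0.10 without the run. Genes of snoRNAs, the small RNAs that guide rRNA modification, lay within 30 members, of which 8 were past the limits, beside 10 of 52 members without and 17.8% of all genes. Neither the run nor the snoRNA genes were tested for a part in the ratios. The members lay on 19 chromosomes, with 4 on X. Of the 66 analysed members with identical bounds in both tables, 11 (16.7%) were past the limits. Of the 14 with different bounds 5 (35.7%) were, namely Rplp1, Rpl30, Rps3, Rpl21 and Rpl28. Beside these, 17.8% of all genes, whatever their bounds, were past the limits.

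Other genes of protein synthesis were compared by lists. Of 16 translation genes other than ribosomal proteins that are known for TOP mRNAs, 0 were above 3/2 and 1 was below 2/3, with a median log2 ratio of 0.04. The highest, Eef1a1, which brings aminoacyl-tRNA to the ribosome, was at 1212 and 1266 FPKM, and Eef2, which moves the ribosome along, at 607 and 574 FPKM. The gene below was Hnrnpa1, at 30.2 FPKM in WT and without a row in β-arr1 KO, where a row named Gm5643 at its place was at 28.7 FPKM. Of 75 genes of the mitochondrial ribosome, 3 were above and 4 below, with a median log2 ratio of 0.08. Beside these, 9.56% of all genes were above and 8.28% below.

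Among 28 initiation factors, 2 were above 3/2 and 0 below 2/3, where all genes had 9.56% above and 8.28% below. Eif2s1, the subunit of eIF2 that stress kinases phosphorylate, was at 20.8 and 38.2 FPKM, giving a ratio of 1.84, and Eif3m at 15.1 and 25.6 FPKM, giving a ratio of 1.70. The highest of this list were Eif4g2, at 277 and 323 FPKM, and Eif3k, at 150.0 and 135 FPKM.

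Among 40 genes of ribosome biogenesis, 3 were above and 3 below, that is 15% past the limits, near the 17.8% of all genes. Wdr12 was at 4.46 and 8.61 FPKM, Polr1e at 4.66 and 8.61 FPKM, and Ebna1bp2 at 38.9 and 17.4 FPKM. Ncl, the most abundant of the list, was at 189 and 207 FPKM, and Polr1d at 73.3 and 75.7 FPKM. Taf1d was listed in β-arr1 KO only, and Ddx21 and Rrn3 in WT only. In the library without a row of their own, a row of another gene lay at the place of each of these 3. Ddx21 was at 26.5 FPKM in WT, and its neighbor Ddx50, whose KO row reached over it, was at 21.6 FPKM in WT against 44.2 FPKM in β-arr1 KO.

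Of 23 genes of mTOR, Myc and the S6 kinases, 1 was above and 1 below, beside 9.56% and 8.28% of all genes. Rps6kb1, the S6 kinase that phosphorylates Rps6, was at 17.6 and 8.48 FPKM, giving a ratio of 0.482 (interval 0.429 to 0.542). Rheb, the activator of mTOR, was at 87.7 FPKM in β-arr1 KO without a row in WT, where the row of Prkag2 reached over it and was at 97.1 FPKM, against 19.7 FPKM in β-arr1 KO. Eif4ebp1 and Akt1s1, the highest of the list by mean, were at 98.3 and 93.3 FPKM and at 81.5 and 63.5 FPKM. Of 8 noncoding snoRNA hosts, 1, Snhg5, was listed in WT only (12.7 FPKM), with other rows at its place in β-arr1 KO. Gas5, another such host, was at 218 and 146 FPKM, giving a ratio of 0.670 that was just inside the limit, and Snhg8 was at 65.3 and 70.0 FPKM. Of 9 genes of the p53 response to free ribosomal proteins, Bbc3 was below the limit with 11.1 and 7.22 FPKM, while Cdkn1a was at 386 and 344 FPKM and Ccng1 at 242 and 219 FPKM. Among 10 proliferation genes 1, Tyms, was below, with 16.4 and 3.68 FPKM.

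Absence of a row was common in these tables and often went with such merged rows. Of the 475 analysed genes listed in 1 table only, 364 (76.6%) had another row at their place in the other table. Rpl12 and Rpl18 belonged to the 111 that had none.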

How the data were processed

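RNA of 1 WT and 1 β-arr1 KO culture was sequenced as paired reads. Per the labels and the study's methods, the authors aligned reads to mm9 with TopHat 1.4.0 and estimated expression with Cufflinks (version and annotation not given in the sources used here). The deposited values are FPKM, scaled by the authors for transcript length and mapped fragments, and list values above 0 only. Tables were joined by symbol, and a gene absent from 1 table was given 0. Ratios carry no pseudocount. Limits were 3/2 and 2/3, as in the study, and genes under 1 FPKM in both libraries were left out. The study reported a smaller share of changed genes at these limits. Here the share was 17.8% with the 475 genes listed in 1 table only, which all count as past the limits, and 14.6% without them.

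Depth was estimated from genes under 0.15 FPKM with 1 transcript longer than 1000 bases, whose values lie on steps of whole fragments: 71.5% of 411 genes in WT and 72.0% of 428 in β-arr1 KO came within 5% of a step, against 11.4% and 11.7% after shuffling lengths. Fragments per gene used the shortest GENCODE transcript that holds the longest coding sequence, and 95% Clopper-Pearson intervals were centred on the FPKM ratio. Starts of loci were counted from 1, since 38.5% then equaled the annotation in WT. Copies were searched with blastn 2.17.0 on chromosomes 1 to 19, X and Y; Rpl41 was not assessed. Calls and intervals were also run on simulated counts with counting error alone, which cannot check the step from FPKM to fragments. The fragments, and so the width of an interval, depend on the transcript length used. Python 3.11.15 was used.

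Members and lists were chosen with earlier results of these data known. Named were all members past the limits or in 1 table, the 5 highest and lowest by level and by ratio, paralogs with parents, stalk genes, ribosomal genes under other symbols and, of other lists, genes past the limits with the 2 highest. Of the marker lists, sums, counts, Gfap, Tyms and markers without a row are given. Genes such as Rps6, Rps19, Rpl5 and Rpl11, and neighbors of named rows, were added after their values were seen. A few genes that the rule named are not reported here and are left out of the figures, but they are included in counts, sums and medians.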

Additional observations from a re-analysis of the deposited data

How the results depend on the processing

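The count of 18 members past the limits was 9 with limits of 2 and 1/2, 11 among the 66 members whose bounds were equal, and 1 of 18 among members with no copy of 98% identity, a restriction chosen after seeing the data. Under the other settings (minimum, pseudocount, scaling, summing rows, members in both tables, ribosome proteins alone) it was 16 to 19. For the counts of 9 and 11, no share of all genes at the same setting was available. With a pseudocount of 1, Rpl22l1 and Rpl21 came inside the limits (1.496 and 0.689). The median log2 ratio of 0.02 was near 0 and its sign depended on the setting: it was 0.0057 with libraries rescaled to the same median ratio, -0.00099 with the same upper quartile, -0.0030 for members with the same bounds and -0.052 for members without a copy. The share of all FPKM was 0.247 percentage points higher in β-arr1 KO, and 0.221 without Rplp1 and Rpl41. The Arrb1 ratio was 0.432 with a pseudocount of 1. No paired analysis was possible because each genotype had 1 library, and for the same reason no library could be left out. Low members such as Rps27 and Rps29 are limited by depth.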
